A study of Mus musculus with 4 samples.

Results

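The cell-cycle machinery of mouse embryonic stem (ES) cells was followed through 57 genes that lie outside chromosome 13, picked by their symbol from the 24054 genes listed in each library. Of these, 27 act in G1 phase or in DNA replication (the G1/S group) and 30 act in G2 phase and mitosis (the G2/M group), and they are spread over 16 chromosomes with 0 on chromosome 13 and 0 on chromosome 14. RNA-seq was analysed from 1 library of the wild-type ES line wt26 and from 3 Morc3 rescue lines, the clones 3C, 3D and 3M. Morc3 is a nuclear ATPase that silences endogenous retroviruses. The rescue clones carry a Morc3 knock-out, come from 1 knock-out line that is itself a single clone made from wt26, and re-express Morc3 from a PiggyBac transposon in which the hPGK promoter drives the Morc3 cDNA and a linked puromycin marker. Each rescue line is a single clone that was isolated under puromycin. All 4 cultures were grown without feeders on gelatin in medium with serum and LIF, and all 4 libraries were made from rRNA-depleted total RNA with a kit that keeps the strand. Morc3 ko libraries were not analysed here, so the comparison is between rescue clones and wild type only. Because wild type has 1 library, the spread in every test came from the 3 clones, and the wild-type library was assumed to vary like them.

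The cell cycle alternates between DNA replication in S phase and chromosome segregation in M phase. D-type cyclins with Cdk4 or Cdk6 and E-type cyclins with Cdk2 phosphorylate the retinoblastoma family, which frees E2F transcription factors to switch on the replication genes, while later in the cycle cyclin A and cyclin B with Cdk1 drive entry into mitosis and the anaphase-promoting complex ends it. ES cells divide fast, have a short G1 phase and keep much of this program on, with little cyclin-dependent kinase inhibitor. In RNA from whole cultures, a change in the share of cells in a phase and a change in RNA per cell cannot be told apart.

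Gene counts ranged from 13620914 to 18789457 per library, of which the wild-type library had the most. Wild type also differed from all clones in mapping, with 14.5% of read pairs unmapped against 21.0% to 23.0% and 52.7% on genes against 45.1% to 47.0%, and the part of this in the fold changes was not tested. Morc3 itself stood at 160.7 CPM (counts scaled to a common library size with TMM factors) in wild type and at 655.0, 496.5 and 609.1 CPM in 3C, 3D and 3M. All rescue clones thus carried more Morc3 RNA than wild type, and these counts do not separate the transgene from transcripts of the disrupted gene. The 10 pluripotency markers were all tested and had a lowest value of 152.4 CPM in any library. Their sums were 5465 CPM in wild type and 5679, 6133 and 5778 CPM in 3C, 3D and 3M. All clones lay above wild type for 4 of these markers (40.0%) and below it for 1 (10.0%), beside 28.7% and 28.4% of all genes. Among the 4 was Nanog, at 299.7 CPM in wild type and at 468.0, 358.2 and 480.9 CPM in 3C, 3D and 3M. Of 20 differentiation and feeder markers, 8 passed the filter on low counts, 2 to 5 had no read in a library, and their summed level was 19.3 CPM in wild type and 23.7, 27.4 and 24.6 CPM in 3C, 3D and 3M, lowest in wild type. The 8 tested ones had a median log2 fold change of 0.40, 7 of 8 above 0, and none had an unadjusted p under 0.05 in the edgeR fit. The part of these markers in the values of the members was not tested. Chromosomes 13 and 14 stood apart from the rest: the median log2 CPM difference from wild type over 512 genes of chromosome 13 was 0.48, 0.03 and 0.48 in 3C, 3D and 3M, and over 465 genes of chromosome 14 it was 0.34, 0.34 and 0.35. These chromosomes hold no member, and their part in the values of the members was not tested.

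To show the sequences through which cell-cycle genes are known to be timed, the 250 bases before an annotated transcript start were read from RefSeq promoter windows (GRCm38.p6) for the 46 members that have one, 51 windows in all. Mcm4, Ccnd1, Aurkb, Ccnd2, Ccne2, Ccna2, Foxm1, Cdc25c, Wee1, Kif20a and Incenp had none. Letters were searched on both strands for E2F words (TTTGGCGC, TTTCGCGC, TTTCCCGC or TTTGGCGG, of which the first and the last share 7 letters), for the cell cycle genes homology region or CHR (TTTGAA or TTTAAA), which binds repressor and activator complexes of G2/M genes, and for the CCAAT box, which binds NF-Y. An E2F word stood in 8 of 27 windows of G1/S members (29.6%) and in 1 of 24 windows of G2/M members (4.17%), beside 1.96% of all 32817 windows and 3.61% of the windows of tested genes. A CHR together with a CCAAT box stood in 13 of 24 windows of G2/M members (54.2%) and in 5 of 27 windows of G1/S members (18.5%), beside 8.76% of all windows and 6.26% of those of tested genes. The windows of Bub3 overlap and hold the same CHR and CCAAT letters, so that sequence was counted more than once in the G2/M group. A match is a run of letters and not a shown binding site. The window of Mcm6 held 3 E2F matches, of which those beginning 110 and 106 bases from the start overlap. This window (chr1:128359706-128359955, minus strand) and those of Orc1 (chr4:108579204-108579453, plus strand) and Cdc6 (chr11:98907901-98908150, plus strand) are given 5′ to 3′. E2F words and CCAAT boxes are in capitals, and the last base lies next to the start.
Mcm6: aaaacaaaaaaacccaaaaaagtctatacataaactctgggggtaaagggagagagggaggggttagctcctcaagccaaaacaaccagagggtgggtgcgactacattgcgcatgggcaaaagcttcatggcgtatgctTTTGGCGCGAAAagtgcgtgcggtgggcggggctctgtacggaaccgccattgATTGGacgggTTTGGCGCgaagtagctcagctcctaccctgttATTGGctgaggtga
Orc1: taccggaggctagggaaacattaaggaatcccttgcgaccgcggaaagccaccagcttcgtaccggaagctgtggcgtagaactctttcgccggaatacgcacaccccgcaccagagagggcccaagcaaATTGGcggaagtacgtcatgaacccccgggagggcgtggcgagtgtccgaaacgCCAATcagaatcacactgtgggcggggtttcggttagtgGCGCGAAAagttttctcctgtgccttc
Cdc6: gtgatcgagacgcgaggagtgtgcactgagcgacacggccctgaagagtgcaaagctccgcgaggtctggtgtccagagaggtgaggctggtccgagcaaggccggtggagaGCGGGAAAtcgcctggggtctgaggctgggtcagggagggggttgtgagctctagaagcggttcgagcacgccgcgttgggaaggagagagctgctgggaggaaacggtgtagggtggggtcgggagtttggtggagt

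The windows shown for the G2/M group held a CHR near the start. The window of Cdk1 (chr10:69352913-69353162, minus strand) was the only G2/M window with an E2F word and also held 2 CHR and 3 CCAAT matches, with the nearest CHR 15 bases from the start. The windows of Plk1 (chr7:122159185-122159434, plus strand), Cdc20 (chr4:118437344-118437593, minus strand) and Espl1 (chr15:102296043-102296292, plus strand) held a CHR beginning 29, 18 and 27 bases from the start, each with a CCAAT box within 53 bases of the start. They are shown 5′ to 3′ with E2F, CHR and CCAAT matches in capitals, since they are the promoters of a mitotic kinase, of the anaphase activator and of the G2/M member with the lowest fold change.
Cdk1: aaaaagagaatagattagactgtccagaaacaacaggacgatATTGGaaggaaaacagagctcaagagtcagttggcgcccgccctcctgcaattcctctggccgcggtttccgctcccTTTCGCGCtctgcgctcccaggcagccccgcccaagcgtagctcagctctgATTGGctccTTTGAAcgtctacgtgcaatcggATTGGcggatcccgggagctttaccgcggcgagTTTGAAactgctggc
Plk1: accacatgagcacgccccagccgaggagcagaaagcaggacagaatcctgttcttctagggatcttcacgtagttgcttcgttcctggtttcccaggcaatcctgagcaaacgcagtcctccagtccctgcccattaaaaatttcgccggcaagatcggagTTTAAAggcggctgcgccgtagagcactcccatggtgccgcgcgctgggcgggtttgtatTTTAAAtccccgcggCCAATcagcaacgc
Cdc20: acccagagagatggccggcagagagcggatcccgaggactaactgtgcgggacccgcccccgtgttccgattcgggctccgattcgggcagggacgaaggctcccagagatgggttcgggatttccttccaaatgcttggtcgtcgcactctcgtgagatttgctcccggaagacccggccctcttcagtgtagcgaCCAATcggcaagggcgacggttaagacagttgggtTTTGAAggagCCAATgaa
Espl1: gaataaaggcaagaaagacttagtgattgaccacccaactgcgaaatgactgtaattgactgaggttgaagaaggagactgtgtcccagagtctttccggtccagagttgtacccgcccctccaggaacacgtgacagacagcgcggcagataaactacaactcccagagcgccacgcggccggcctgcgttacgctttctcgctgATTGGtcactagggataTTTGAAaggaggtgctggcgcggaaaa

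**Figure D1:**
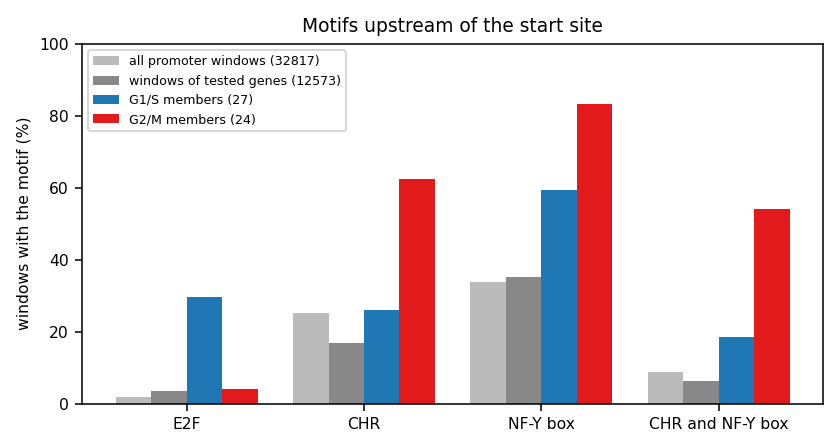
Share of promoter windows (vertical axis, percent) that hold an E2F word, a CHR, a CCAAT (NF-Y) box or both of the last, for all windows, windows of tested genes, and windows of G1/S and G2/M members. E2F words are at 29.6% in G1/S members against 4.17% in G2/M members, and CHR with an NF-Y box at 54.2% in G2/M members against 18.5% in G1/S members.

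No cell-cycle member passed the test between rescue clones and wild type, and most fold changes were small. Of the 57 members, 56 passed the filter on low counts and none was called at an adjusted p of 0.01 (edgeR quasi-likelihood test, with Benjamini-Hochberg or BH adjustment), where 1 of 13267 genes tested (0.00754%) was called, the Y-linked gene Ddx3y, which was lower in all 3 clones and is named here after its value was seen. With DESeq2 no member was called either, beside 0.49% of all genes, and limma-voom called none of either. At an unadjusted p under 0.05, 4 members were higher in the clones (Cdt1, Ccnd3, Ccne2 and Cenpe) beside 5.92% of all genes, and 1 was lower (Espl1) beside 4.42% of all genes. The 95% interval of the fold change stayed within 1.5-fold of wild type for 52 of 56 members (92.9%), beside 50.9% of all genes. The 4 members whose interval reached beyond that were Ccnd2, Ccnd3, Ccne2 and Rbl2, all of the G1/S group. Members had more counts than most genes, with a median of 134.7 CPM against 20.7 CPM over all genes tested, and their fold changes had a median standard error of 0.08 against 0.16 (log2).

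**Figure D2:**
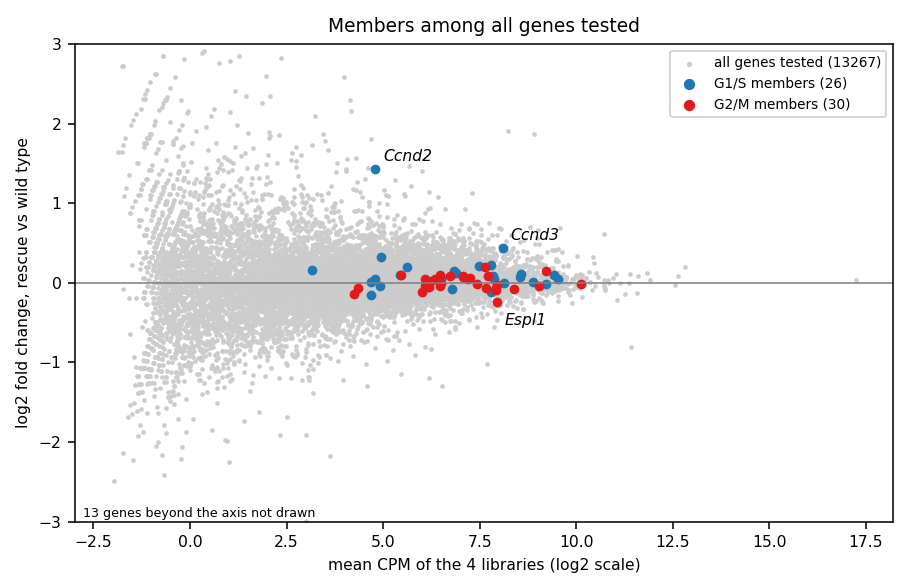
Fitted log2 fold change of rescue clones against wild type (vertical axis) by mean CPM of the 4 libraries (horizontal axis, log2 scale) for 13267 genes tested in grey, 26 G1/S members in blue and 30 G2/M members in red. Members lie near 0 except Ccnd2 at 1.43 and Ccnd3 at 0.44, and 13 genes beyond a log2 fold change of 3 are not drawn.

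The groups had slightly different medians, which are given as a description with no test. G1/S members had a median log2 fold change of 0.08, with medians of 0.09, 0.06 and 0.09 for the log2 CPM differences of 3C, 3D and 3M, whereas G2/M members had a median of -0.012, with -0.0093, 0.0041 and -0.012. Over all genes tested the median was 0.0051. With scaling factors that left out chromosomes 13 and 14, the G2/M median turned to 0.0021 and that of all genes was 0.02. All 3 clones lay above wild type for 16 of 26 tested G1/S members (61.5%) and for 9 of 30 G2/M members (30.0%), beside 28.7% of all genes. All 3 lay below wild type for 4 G1/S members (15.4%) and 11 G2/M members (36.7%), beside 28.4% of all genes. Every clone had its G2/M median below its G1/S median, by 0.10 in 3C, 0.06 in 3D and 0.10 in 3M. All these differences were taken from the same wild-type library, so a deviation of that library enters each of them. Summed over members, G1/S transcripts came to 5350 CPM in wild type and to 5720, 5592 and 5661 CPM in 3C, 3D and 3M, and G2/M transcripts to 5864 CPM in wild type and to 5840, 5902 and 5867 CPM. The G1/S sum was thus above wild type in every clone, while wild type lay inside the range of the clones for the G2/M sum. The ratio of the G2/M to the G1/S sum was 1.10 in wild type and 1.04 ± 0.017 (SD, n = 3) in the clones.

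**Figure D3:**
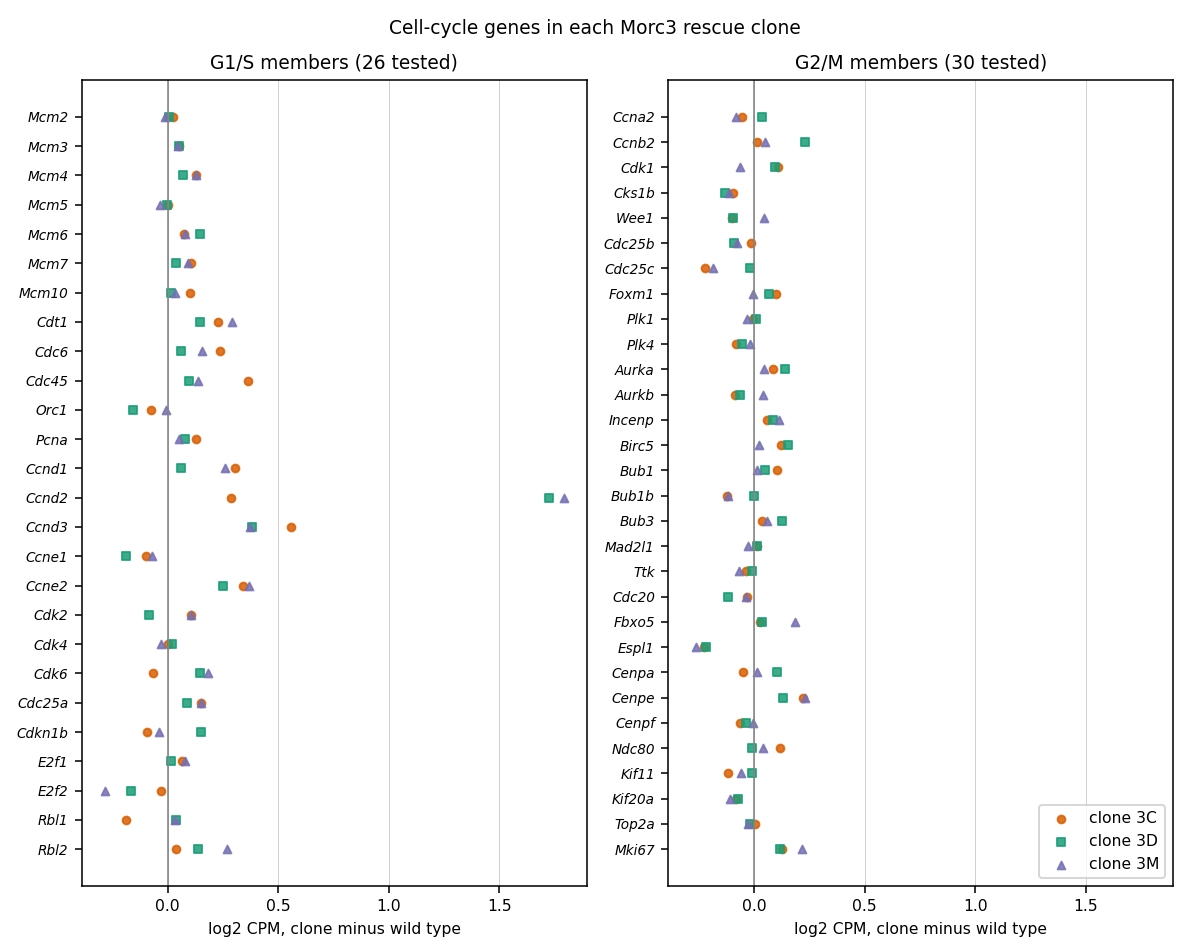
Difference in log2 CPM between each clone and wild type (horizontal axis) for each tested member (rows), G1/S on the left and G2/M on the right, with 1 symbol per clone. Most symbols lie within 0.2 of the line at 0, and Ccnd2 is far to the right in 3D and 3M but not in 3C.

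The licensing and fork genes set up and carry out replication. Mcm2 to Mcm7 form the replicative helicase, Orc1, Cdc6 and Cdt1 load it on origins, Cdc45 and Mcm10 help to activate it, and Pcna is the sliding clamp of the polymerases. Of these 12 genes, all 3 clones were above wild type in 9 (75.0%) and below it in 2 (16.7%, Orc1 and Mcm5). Over all genes tested the shares were 28.7% and 28.4%. For the 47 other replication genes listed below, all clones were above wild type in 14 (29.8%) and below it in 14 (29.8%). The median log2 fold change of the 12 genes was 0.08. Mcm2 stood at 473.5 CPM in wild type and at 480.9, 475.4 and 469.3 CPM in 3C, 3D and 3M, for a log2 fold change of 0.0052 (SE 0.06). Mcm5 stood at 594.4 CPM in wild type and at 594.4, 593.0 and 581.1 CPM, for a log2 fold change of -0.01 (SE 0.06). For both helicase subunits the 4 libraries lay closely together. Pcna was at 220.1 CPM in wild type and at 240.9, 232.2 and 227.9 CPM in the clones, with all clones higher by a log2 fold change of 0.09 (SE 0.07, edgeR quasi-likelihood, BH-adjusted p = 0.69). Per length of transcript, as RPKM (CPM over exon length in kilobases), Mcm4 was the lowest of Mcm2 to Mcm7 in every library (99.2 to 108.4 RPKM) and Mcm3 the highest (238.1 to 246.9 RPKM). The lowest and the highest of these subunits by RPKM were thus the same in all 4 libraries.

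Cdt1, the licensing factor that is destroyed once replication begins, had 3728 wild-type counts and 3082, 3144 and 3706 in 3C, 3D and 3M, or 195.5 CPM against 228.6, 216.1 and 239.2 CPM. All clones were above wild type, by a log2 fold change of 0.22 (SE 0.08, 95% interval 0.02 to 0.42), which had an unadjusted p of 0.035 and a BH-adjusted p of 0.44 in the edgeR quasi-likelihood test. Cdc45 was at 44.1 CPM in wild type and at 56.7, 47.1 and 48.5 CPM in the clones, for a log2 fold change of 0.20 (SE 0.13). Clone 3C was the highest and stood apart from the other two. Orc1, the largest subunit of the origin recognition complex, was at 115.4 CPM in wild type and at 109.4, 103.6 and 114.9 CPM, for a log2 fold change of -0.08 (SE 0.09), with 3M next to wild type. The remaining licensing and fork genes (Mcm3, Mcm4, Mcm6, Mcm7, Mcm10 and Cdc6) had log2 fold changes from 0.05 to 0.15, with BH-adjusted p from 0.59 to 0.84 in the same edgeR quasi-likelihood fit.

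The D-type cyclins bind Cdk4 and Cdk6 and carry growth signals into the cycle, and among them Ccnd2 and Ccnd3 had the largest fold changes of all tested members. Ccnd3 (chr17:47505051-47599689) had 4114 wild-type counts and 4283, 4090 and 4328 counts in 3C, 3D and 3M, although wild type was the deepest library, which came to 215.7 CPM against 317.7, 281.1 and 279.4 CPM. All 3 clones were above the 1 wild-type library, as they were for 28.7% of all genes tested. The log2 fold change was 0.44 (SE 0.10, 95% interval 0.20 to 0.68), with an unadjusted p of 0.0044 and a BH-adjusted p of 0.25 (edgeR quasi-likelihood). Without clone 3D it was 0.47 (SE 0.08) with a BH-adjusted p of 0.0046 (edgeR quasi-likelihood), the only member called at 0.01 in any alternative fit. That fit called 420 of 13243 genes (3.17%), 141 of them on chromosome 13 and 65 on chromosome 14.

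Ccnd2 (chr6:127125162-127152188) had 235 wild-type counts and 203, 597 and 666 counts in 3C, 3D and 3M, or 12.3 CPM against 15.1, 41.0 and 43.0 CPM. Clones 3D and 3M were high, and 3C was next to wild type. On the log2 scale the clones lay 0.29, 1.72 and 1.79 above wild type, and the fitted log2 fold change was 1.43 (SE 0.60, 95% interval -0.07 to 2.93, edgeR quasi-likelihood, BH-adjusted p = 0.50). The range between clones was 1.51 log2 units, against 0.27 for Cdc45, the member with the next widest range. The median range was 0.10 over the members and 0.24 over all genes tested. Leaving out 3C, the clone nearest to wild type, removes most of the spread of Ccnd2, so the p-value of that fit is no separate support. Without clone 3C the log2 fold change was 1.77 (SE 0.14) with a BH-adjusted p of 0.025 (edgeR quasi-likelihood), under 0.05 but not under 0.01, in a fit where 8 of 13233 genes (0.0605%) were under 0.05.

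Ccnd1 had 3040 wild-type counts and 2655, 2419 and 2955 counts in the clones, or 159.4 CPM against 196.9, 166.2 and 190.7 CPM. All clones were higher, with 3D nearest to wild type, and the log2 fold change was 0.21 (SE 0.11, 95% interval -0.06 to 0.49, edgeR quasi-likelihood, BH-adjusted p = 0.56). Without clone 3D the log2 fold change of Ccnd1 was 0.28 (SE 0.08) with a BH-adjusted p of 0.046 (edgeR quasi-likelihood), under 0.05 but not under 0.01. That fit left out the clone nearest to wild type, so its smaller SE and p-value come with the omission and are no separate support. Per length, Ccnd3 was the most abundant D-type cyclin in each library, with 66.5% to 70.3% of their summed RPKM. The share of Ccnd2 was 1.38% in wild type and 1.21%, 3.70% and 3.73% in 3C, 3D and 3M. The sum of the D-type cyclins, formed after the values of its members had been seen, was 132.6 RPKM in wild type and 184.7, 165.4 and 171.6 RPKM in the clones. It was above wild type in each clone.

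The E-type cyclins, partners of Cdk2 at the start of S phase, lay on both sides of wild type. Ccne1 was at 237.2 CPM in wild type and at 221.6, 208.1 and 225.5 CPM in 3C, 3D and 3M, for a log2 fold change of -0.12 (SE 0.07, edgeR quasi-likelihood, BH-adjusted p = 0.62), with all clones below wild type. Ccne2, the less abundant paralog, was at 8.14 RPKM in wild type and at 10.3, 9.69 and 10.5 RPKM, for a log2 fold change of 0.32 (SE 0.11, 95% interval 0.05 to 0.59), with an unadjusted p of 0.028 and a BH-adjusted p of 0.43 in the edgeR quasi-likelihood test. All clones were above wild type for this paralog. Ccne1 made up 91.5% to 93.6% of their summed RPKM, so that the sum was 126.7 RPKM in wild type and 119.4 ± 5.01 RPKM (SD, n = 3) in the clones. The ratio of D-type to E-type cyclin RPKM was 1.05 in wild type and 1.53, 1.45 and 1.39 in 3C, 3D and 3M. It was also formed after the values of its members had been seen, so it restates their differences and is not a separate result.

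**Figure D4:**
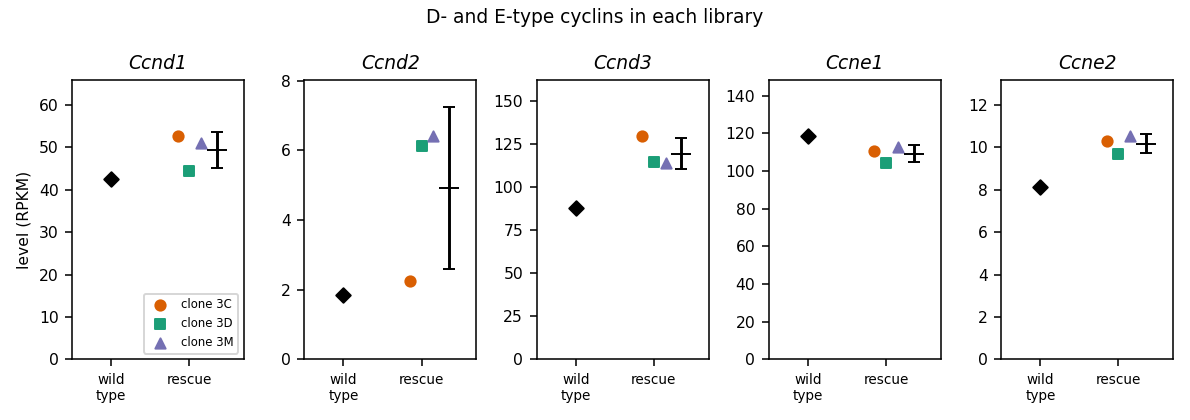
Level of each D-type and E-type cyclin (vertical axes, RPKM, each starting at 0) in the wild-type library (black diamond) and the 3 rescue clones (coloured symbols), with the mean ± SD of the clones as a bar. Ccnd3 is at 88.2 RPKM in wild type and from 114.2 to 129.8 RPKM in the clones, and Ccnd2 is at 2.24 RPKM in 3C but above 6 RPKM in 3D and 3M.

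Their kinase partners lay close to wild type. Cdk4 stood at 281.9 CPM in wild type and at 282.2, 285.6 and 276.1 CPM in the clones, for a log2 fold change of -0.0032 (SE 0.06, 95% interval -0.16 to 0.15). Cdk2 stood at 88.0 CPM and at 94.7, 83.0 and 94.7 CPM, for a log2 fold change of 0.05 (SE 0.10), with the clones on both sides of wild type. Cdk6 and Cdc25a, the phosphatase that activates Cdk2, had log2 fold changes of 0.09 (SE 0.13) and 0.13 (SE 0.07). The inhibitor p27, encoded by Cdkn1b, was at 25.8 CPM in wild type and at 24.2, 28.7 and 25.1 CPM, for a log2 fold change of 0.01 (SE 0.14). Cdkn2c, which encodes the Cdk4 and Cdk6 inhibitor p18, had 9 wild-type counts and 7, 1 and 6 counts in 3C, 3D and 3M and was not tested. Its exact Poisson intervals, 4.12 to 17.1 counts in wild type and 0.03 to 5.57 in 3D, overlapped, and they cover counting error only.

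The E2F factors and the pocket proteins that restrain them, 4 genes, had log2 fold changes from -0.16 to 0.16. Their median standard error was 0.13, against 0.08 over the members. E2f1, an activator of replication genes, was at 26.8 CPM in wild type and at 28.1, 27.1 and 28.3 CPM in the clones, for a log2 fold change of 0.05 (SE 0.11). E2f2 had 534 wild-type counts and 370, 363 and 356 in 3C, 3D and 3M, the lowest log2 fold change of the G1/S group at -0.16 (SE 0.13, 95% interval -0.49 to 0.18). Rbl1 (p107) was at 30.6 CPM in wild type and at 26.8, 31.3 and 31.2 CPM, for a log2 fold change of -0.04 (SE 0.13), with 3C alone below wild type. Rbl2 (p130), a marker of resting cells, was the lowest tested member per length, at 1.86 RPKM on average over the clones, and had a log2 fold change of 0.16 (SE 0.18, 95% interval -0.29 to 0.60). Its interval included no change.

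Among the G2/M members, the mitotic cyclins and the Cdk1 module lay on both sides of wild type. All clones were above it for 1 of 8 genes (12.5%) and below it for 3 (37.5%), beside 28.7% and 28.4% of all genes. Ccna2, whose cyclin serves both S phase and mitosis, was at 252.0 CPM in wild type and at 242.9, 258.5 and 237.9 CPM in 3C, 3D and 3M, for a log2 fold change of -0.03 (SE 0.07). Ccnb2, a B-type cyclin, was at 84.5 CPM in wild type and at 85.2, 99.3 and 87.6 CPM, for a log2 fold change of 0.10 (SE 0.11), with 3D the highest. Cdk1, the mitotic kinase itself, was at 143.6 CPM and at 154.9, 153.3 and 137.4 CPM, for a log2 fold change of 0.05 (SE 0.09). Wild type lay between the clones for Ccna2 and for Cdk1. Cks1b, a small subunit of cyclin-dependent kinases, was at 68.1 CPM in wild type and at 63.6, 62.2 and 62.9 CPM, for a log2 fold change of -0.11 (SE 0.08), with the clones close to each other and all below wild type.

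Cdc25c, a phosphatase that removes the inhibitory phosphates from Cdk1, was at 20.3 CPM in wild type and at 17.4, 20.1 and 17.9 CPM in the clones, for a log2 fold change of -0.14 (SE 0.14). Its kinase counterpart Wee1, the phosphatase Cdc25b and the mitotic transcription factor Foxm1 had log2 fold changes of -0.05, -0.06 and 0.05. None of the 3 had an interval that reached 1.5-fold.

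The Polo and Aurora kinases time spindle assembly, and Incenp and Birc5 (survivin) anchor Aurora B in the chromosomal passenger complex. Plk1 stood at 174.4 CPM in wild type and at 173.9, 175.5 and 170.7 CPM in 3C, 3D and 3M, for a log2 fold change of -0.0089 (SE 0.07, 95% interval -0.17 to 0.15). Aurka stood at 128.5 CPM in wild type and at 136.4, 141.6 and 132.7 CPM, for a log2 fold change of 0.09 (SE 0.07). Birc5 was at 41.9 CPM in wild type and at 45.6, 46.6 and 42.6 CPM, for a log2 fold change of 0.10 (SE 0.10). The clones were thus at wild type for Plk1 and slightly above it for the other two. Incenp was above wild type in all clones as well, with a log2 fold change of 0.09, and Aurkb and Plk4, the kinase of centriole duplication, were at -0.04 and -0.05.

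The spindle checkpoint holds back the anaphase-promoting complex until all chromosomes are attached. Bub1, a checkpoint kinase, was at 147.9 CPM in wild type and at 159.1, 152.8 and 149.1 CPM in the clones, for a log2 fold change of 0.06 (SE 0.07). Bub1b (BubR1) was at 347.7 CPM and at 319.2, 347.5 and 320.3 CPM, for a log2 fold change of -0.08 (SE 0.07), with 3D level with wild type. Cdc20, the activator of the anaphase-promoting complex that the checkpoint blocks, was at 210.5 CPM and at 205.8, 194.0 and 205.0 CPM, for a log2 fold change of -0.06 (SE 0.07). All clones were below wild type for Bub1b and Cdc20. Bub3, Mad2l1, Ttk and Fbxo5, the Emi1 inhibitor of the anaphase-promoting complex, had log2 fold changes from -0.04 to 0.08.

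Espl1 encodes separase, the protease that cuts cohesin at anaphase, and it was the member with the most negative fold change. It had 5281 wild-type counts and 3187, 3468 and 3580 counts in 3C, 3D and 3M, or 276.9 CPM against 236.4, 238.3 and 231.1 CPM. All clones were below wild type and close to each other. The log2 fold change was -0.24 (SE 0.06, 95% interval -0.39 to -0.08), with an unadjusted p of 0.010 and a BH-adjusted p of 0.32 (edgeR quasi-likelihood). The lowest BH-adjusted p in any alternative was 0.059, in the edgeR quasi-likelihood fit without 3D.

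The structural genes of mitosis include the member with the most counts. Top2a, the topoisomerase that untangles sister chromatids, had 21476 wild-type counts and 15203, 16179 and 17090 in the clones, or 1126 CPM against 1128, 1112 and 1103 CPM, for a log2 fold change of -0.02 (SE 0.05, 95% interval -0.15 to 0.11). It showed no difference beyond the spread of the clones. Mki67, the Ki-67 protein that coats mitotic chromosomes and marks dividing cells, was at 552.8 CPM in wild type and at 602.5, 599.3 and 642.8 CPM, for a log2 fold change of 0.15 (SE 0.07, edgeR quasi-likelihood, BH-adjusted p = 0.51). Cenpe, a kinetochore motor, was at 180.9 CPM and at 210.9, 198.0 and 212.2 CPM, for a log2 fold change of 0.19 (SE 0.07, 95% interval 0.01 to 0.38), with an unadjusted p of 0.041 and a BH-adjusted p of 0.46 in the edgeR quasi-likelihood test. Both lay above wild type in all clones. Kif20a, a motor of the central spindle, was at 255.2 CPM in wild type and at 241.2, 242.5 and 236.9 CPM, for a log2 fold change of -0.09 (SE 0.06). Cenpa, Cenpf, Ndc80 and Kif11, which build the kinetochore or the spindle, had log2 fold changes from -0.06 to 0.05.

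**Figure D5:**
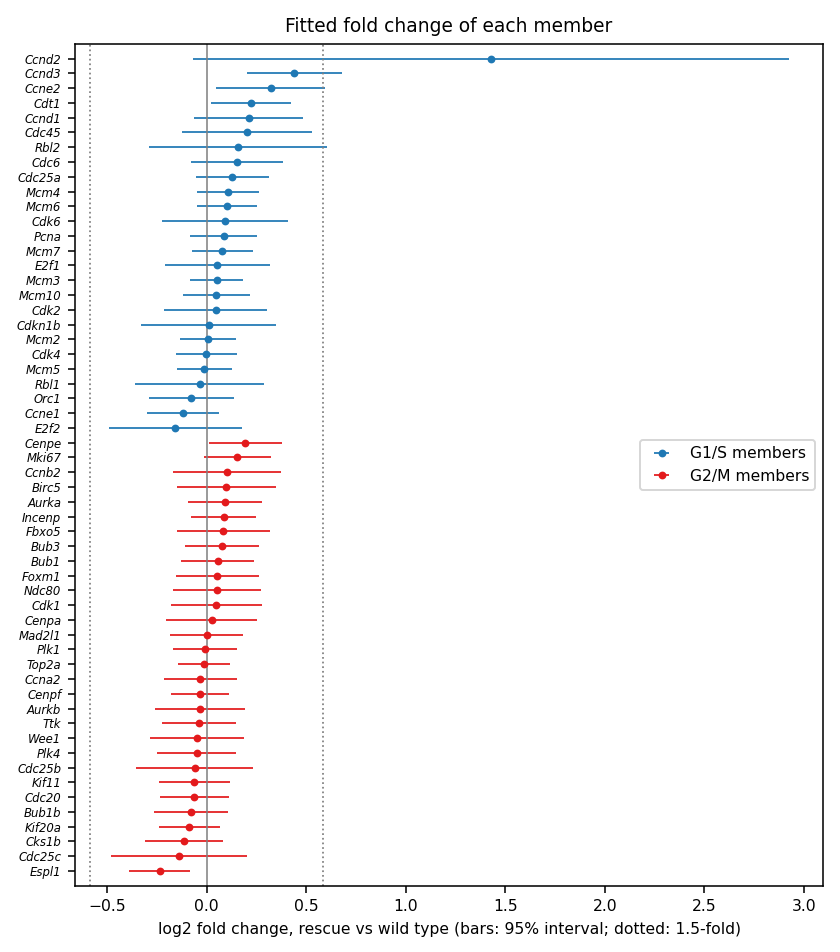
Fitted log2 fold change of rescue clones against wild type with its 95% interval (horizontal axis) for each of the 56 tested members (rows), G1/S in blue and G2/M in red, with dotted lines at 1.5-fold. Intervals lie inside the dotted lines for 52 members, and that of Ccnd2 runs from -0.07 to 2.93.

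The order of the clones was counted among the members of each phase. Among the 26 tested G1/S members, 3D was the lowest clone for 13 and the highest for 4, while 3C and 3M were each the highest for 11. Among the 30 G2/M members, 3D was the highest for 13 and the lowest for 6, while 3C and 3M were each the lowest for 12. Over all 56 tested members the order was nearly even, with 3C, 3D and 3M the highest for 20, 17 and 19 and the lowest for 18, 19 and 19. The same counts were not made over all genes tested, so they cannot be read as a trait of the phases. These counts are a description with no test, and the differences behind them were small. The median range between clones was 0.10 log2 units over the members, and the smallest was 0.0052 for Mcm3.

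Other genes of the cycle, in lists that were chosen with earlier results of these data known, are given beside the members. None of 47 replication genes, 59 mitosis genes and 50 regulators tested was called at an adjusted p of 0.01 by edgeR quasi-likelihood (BH), by DESeq2 or by limma-voom, and 2, 6 and 2 of them in the edgeR fit had an unadjusted p under 0.05. The 2 replication genes and the 2 regulators were higher in the clones, and of the 6 mitosis genes 4 were higher and 2 lower, beside 5.92% of all genes higher and 4.42% lower. Their median log2 fold changes were 0.00047, 0.03 and 0.01. Outside chromosomes 13 and 14 the medians were -0.00041, 0.0091 and -0.012, with 2 of 45, 3 of 50 and 0 of 46 genes at an unadjusted p under 0.05. Prc1, which bundles microtubules at the central spindle, was at 147.7 CPM in wild type and at 109.7, 100.9 and 106.0 CPM in 3C, 3D and 3M, for a log2 fold change of -0.48 (SE 0.08, edgeR quasi-likelihood, BH-adjusted p = 0.19). Rrm2 and Rrm1, the subunits of ribonucleotide reductase, had log2 fold changes of 0.20 (SE 0.06) and 0.21 (SE 0.07). The clones were all below wild type for Prc1 and all above it for both reductase genes. The 10 listed genes on chromosome 13 had medians of 0.52, 0.06 and 0.56 in 3C, 3D and 3M, and the 5 on chromosome 14 had medians of 0.35, 0.32 and 0.40. Ccnb1, the main B-type cyclin and located on chromosome 13, was at 201.0 CPM in wild type and at 286.9, 207.1 and 276.6 CPM, with 3C and 3M high and 3D next to wild type, whereas 3D was the highest for its paralog Ccnb2 on chromosome 9. The ratio of Ccnb1 to Ccnb2 CPM was 2.38 in wild type and 3.37, 2.09 and 3.16 in 3C, 3D and 3M. Ccnb1 had a log2 fold change of 0.35 (SE 0.19, edgeR quasi-likelihood, BH-adjusted p = 0.56). Cdkn1a, which encodes the inhibitor p21, was at 25.2 CPM in wild type and at 30.0, 24.5 and 27.7 CPM, for a log2 fold change of 0.12 (SE 0.14). Ccnh on chromosome 13, a partner of Cdk7, and the retinoblastoma gene Rb1 on chromosome 14 had log2 fold changes of 0.43 (SE 0.14) and 0.43 (SE 0.16), and Cdca2, a mitotic regulator gene on chromosome 14, had 0.37 (SE 0.08). Without clone 3D, where 3.17% of all genes were called, the calls in these lists included Gmnn, Ccnb1, Cks2, E2f3 and Cdk7 on chromosome 13, Prc1 on chromosome 7 and Ccng1 on chromosome 11, with Prc1 lower and the others named here higher in the clones.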

How the data were processed

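RNA-seq gene tables of 4 libraries were used, 1 of wild type and 3 of Morc3 rescue clones, grouped by the genotype in the labels. The authors aligned read pairs to mm10 with STAR and deposited raw counts per gene, unstranded and for each strand. The sources used here do not name the gene annotation. The reverse-strand column was used, since the library kit is directional. Rows that name no gene held 47.3% to 54.9% of read pairs and stayed out of library sizes and tests.

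Counts were tested with edgeR 4.0.16 (quasi-likelihood, TMM, filterByExpr, no covariates) in R 4.3.3 over 13267 genes, with Benjamini-Hochberg adjusted p of 0.01. With separate clones but 1 wild-type library, p-values reflect the spread between clones. CPM used TMM factors, log2 CPM differences a prior count of 2, and RPKM the exon length of GENCODE genes, found for 23681 genes. Positions came from RefSeq (GRCm38.p6), where 22542 symbols matched directly, 1352 by a synonym and 160 did not. The fit was tested on simulated counts.

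The members and lists were chosen with earlier results of these data known. Every member is accounted for by role. Values in full are given for the 5 highest and 5 lowest fold changes of each group, for an unadjusted p under 0.05, for an untested member and for a fixed set of core cell-cycle genes, and from each other list for Ccnb1, Cdkn1a and the 2 lowest unadjusted p. Other genes named in the last paragraph of the results and Nanog were chosen after their values were seen. Alternatives were another strand column, other scalings and filters, DESeq2 1.42.0, limma-voom (limma 3.58.1), the legacy edgeR method, a threshold of 0.05, and leaving out each clone. The authors' own fold changes were not used. One gene of the other lists is not reported by name here.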

Additional observations from a re-analysis of the deposited data

How the results depend on the processing

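Of 647 recomputed values, 619 stayed the same. For a gene this meant the same direction and call, and for a median a shift smaller than the SD of the clones. A count of calls had to stay within 1.5-fold, or to be equal where either count was 0. The 41 named genes among them were not called in the fit of all libraries, so to keep a call meant to stay uncalled. The threshold of 0.05 reused that same fit, so its values could differ in the call only. At the adjusted p of 0.01, no member was called under any alternative except Ccnd3 without 3D, so G1/S calls ranged from 0 to 1 over the fits without a clone. At 0.05 no member passed in the fit of all libraries, Ccnd2 passed without 3C, and Ccnd1 and Ccnd3 passed without 3D. For Ccnd2 and Ccnd1 the clone left out was the one nearest to wild type. Over the same fits at 0.01, calls among all genes ranged from 0 to 420 (420 without 3D, 0 without 3M), replication genes from 0 to 2, mitosis genes from 0 to 3 and other regulators from 0 to 3. Calls among all genes were 65 with DESeq2, which left 3858 adjusted p undefined, and 0 with limma-voom, with the legacy edgeR method and under a stricter filter, where the cause was not tested. Without a clone, the G1/S median ranged from 0.064 to 0.083, the G2/M median from -0.017 to -0.0027, and their difference from -0.10 to -0.067. With TMM scaling without chromosomes 13 and 14, the median of all genes was 0.02 and the G2/M median 0.0021. Small fold changes turned sign: with that scaling Cdk4 was at 0.011, Mcm5 at 0.0021 and Plk1 at 0.0053. Over the fits without a clone, Cdk4 ranged from -0.015 to 0.0098, Plk1 from -0.018 to 0.0022, Cdkn1b from -0.066 to 0.058, Mcm2 from -0.0039 to 0.014 and Rbl1 from -0.073 to 0.033. Members at an unadjusted p under 0.05 numbered 2 of 56 (DESeq2, and without 3M) to 9 of 56 (without 3D). Among all genes tested there were 763 of 13267 with DESeq2, 752 of 13176 without 3M and 2466 of 13243 without 3D. Nanog, a pluripotency marker, had a log2 fold change of 0.54 (BH-adjusted p = 0.40) in the edgeR quasi-likelihood fit of all libraries and 0.66 (0.00012) without 3D. No paired analysis was possible because the wild-type group has 1 library and shares fewer than 2 replicate numbers with the clones. With 1 wild-type library, its own deviation and the effect of rescue cannot be told apart.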
